A study of Mus musculus with 2 samples.

Results

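The 29 genes described here make cholesterol or move and regulate it. They were chosen by name from the 31053 genes of the deposited feature tables, and all 29 were found. By role, 18 are enzymes of synthesis and 11 act elsewhere: 6 in regulation, 2 in export, 1 in uptake and 2 in transport inside the cell. They were read in mouse hippocampal cells of 2 genotypes, with 1 library for each genotype. One library came from Mr1+/+ mice and the other from Mr1-/- mice, both aged 7 months and untreated. Mr1 encodes a class I-like molecule that presents metabolites of microbial origin to T cells, and the labels give no other allele, no background strain, no sex and no number of mice. Cells were released with a neuron isolation kit, and live nucleated cells were sorted by exclusion of DAPI and staining with Draq5. The RNA of single cells was then counted with a droplet kit that reads the 5' end of transcripts. The unit is the UMI, a tag that marks 1 captured molecule.

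Cholesterol is built from acetyl-CoA. The early arm of the pathway leads through mevalonate to squalene, and the sterol arm closes squalene into a ring system and trims it to cholesterol. Little plasma lipoprotein crosses the blood-brain barrier, so brain cells depend on sterol made within the brain: astrocytes are known to make it and to hand it on with apolipoprotein E, and oligodendrocytes use large amounts for myelin. When sterol in the endoplasmic reticulum is low, Scap escorts the transcription factors encoded by Srebf1 and Srebf2 to the Golgi for activation. When sterol is high, Insig1 holds this complex back, and the liver X receptors encoded by Nr1h2 and Nr1h3 sense oxidised sterols and switch on export.

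Promoters are shown because synthesis genes are textbook targets of these transcription factors. RefSeq promoter windows, from 250 bases before to 50 bases after the annotated start, were matched by symbol for 23 of the 29 genes, of which 15 were synthesis genes. Each window was searched on both strands for the letters TCACNCCAC (the core of a sterol response element), CCAAT (the NF-Y box) and GGGCGG (the Sp1 GC box), the latter being common partners of that element. A gene with several windows was counted where any of them matched. The element core was found in 1 of 15 synthesis genes, Hmgcs1, where it began 137 bases before the start, and in 1.44% of all 27025 genes with a window. CCAAT was found in 14 of 15 synthesis genes (93.3%), against 41.1% of all genes and 42.6% of the 10772 genes with at least 50 UMIs in the kept cells. For Dhcr7 it lay only in the window at chr7:143829964-143830263, not in the windows nearer the GENCODE start. Counted by window, CCAAT was found in 18 of the 30 windows of the matched genes (60%), against 37.4% of all windows. GGGCGG was also found in 14 of 15, against 38.2% of all genes and 68.1% of those with at least 50 UMIs. Of the 8 matched genes outside synthesis, 3 held CCAAT and 6 held GGGCGG. The stretches below precede both the RefSeq start and the start of the gene in the GENCODE M21 annotation. Matches in the rest of a window are therefore not shown, and the CCAAT match of the Cyp51 window is among them. Hmgcs1 is shown for its element core, and Cyp51, Nsdhl and Ebp because they are among the genes that were lower in Mr1-/- astrocyte-like cells (chosen after their values were seen). Msmo1, also lower there, is not shown because most of its window lies past the GENCODE start. Its window held CCAAT and GGGCGG. Capitals mark every match to the 3 motifs, none of which overlap, and sequences run 5′ to 3′ on the gene's strand of GRCm38.p6.
Hmgcs1, plus strand, chr13:119690101-119690350: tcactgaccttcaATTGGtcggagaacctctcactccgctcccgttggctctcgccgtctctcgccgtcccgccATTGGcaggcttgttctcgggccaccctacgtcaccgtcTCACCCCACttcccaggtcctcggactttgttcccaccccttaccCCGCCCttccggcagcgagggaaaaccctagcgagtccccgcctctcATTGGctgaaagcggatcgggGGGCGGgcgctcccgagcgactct
Cyp51, minus strand, chr5:4104747-4104947: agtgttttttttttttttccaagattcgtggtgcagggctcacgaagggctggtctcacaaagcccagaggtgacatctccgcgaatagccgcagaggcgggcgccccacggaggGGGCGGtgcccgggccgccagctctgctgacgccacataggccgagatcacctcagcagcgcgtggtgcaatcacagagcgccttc
Nsdhl, plus strand, chrX:72918271-72918520: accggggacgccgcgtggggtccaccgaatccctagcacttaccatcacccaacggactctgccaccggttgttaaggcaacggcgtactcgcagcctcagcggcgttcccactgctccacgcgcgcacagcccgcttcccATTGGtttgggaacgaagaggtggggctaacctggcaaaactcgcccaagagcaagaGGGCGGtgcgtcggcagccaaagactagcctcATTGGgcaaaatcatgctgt
Ebp, minus strand, chrX:8193513-8193762: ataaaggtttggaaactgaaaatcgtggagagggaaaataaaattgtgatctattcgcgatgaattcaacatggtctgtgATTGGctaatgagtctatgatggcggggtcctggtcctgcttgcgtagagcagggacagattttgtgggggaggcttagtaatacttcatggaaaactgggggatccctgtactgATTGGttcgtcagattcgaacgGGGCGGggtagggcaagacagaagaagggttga
A match describes letters and not a bound site, and a missing match says nothing of the factor.

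The libraries held 6410 Mr1+/+ and 5347 Mr1-/- barcodes with 23244575 and 18349132 UMIs, and 44 barcode sequences occurred in both. After filters on genes, mitochondrial share and doublets, 5992 and 5107 cells were kept. Clusters were named from marker lists that contain none of the 29 genes, and the suffix "-like" marks such rebuilt names. Mr1 itself gave 130 UMIs in the kept Mr1+/+ cells and 2 in the kept Mr1-/- cells. Astrocyte-like cells numbered 956 and 477, oligodendrocyte-like cells 1436 and 957, microglia-like cells 653 and 747, mural-like cells (pericytes and smooth muscle) 966 and 971, and endothelial-like cells 1337 and 1486. Neuron-like cells numbered 274 and 167 and neuroblast-like cells 65 and 54. Neither genotype was replicated, so no test between them was made, and every interval below is an exact 95% interval that covers counting error only. Levels are CPM, the UMIs of a gene in all cells of a class for each 1000000 UMIs of that class. Fewer transcripts per cell and a shift in the cells that make up a class cannot be told apart in such sums.

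Synthesis genes were highest in astrocyte-like cells. Their 18 levels summed to 2769 CPM (interval 2710 to 2828) in the Mr1+/+ library and 2430 CPM (2351 to 2511) in the Mr1-/- library. Oligodendrocyte-like cells followed among the 5 large classes with 919 and 943 CPM, then mural-like cells with 466 and 461, endothelial-like cells with 415 and 437, and microglia-like cells with 304 and 295. The order of these 5 classes was shared by both libraries, and the intervals of neighbours in it did not overlap, except for mural-like (434 to 489) and endothelial-like cells (416 to 459) of the Mr1-/- library. Among small classes, neuroblast-like cells reached 1203 and 922 CPM and neuron-like cells 537 and 545 CPM. The 42 and 33 oligodendrocyte precursor-like cells reached 1126 and 1014 CPM. Astrocyte-like cells supplied 43.3% of all synthesis UMIs of the Mr1+/+ library and 28.7% of those of the Mr1-/- library, from 14.2% and 8.45% of all UMIs.

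**Figure D1:**
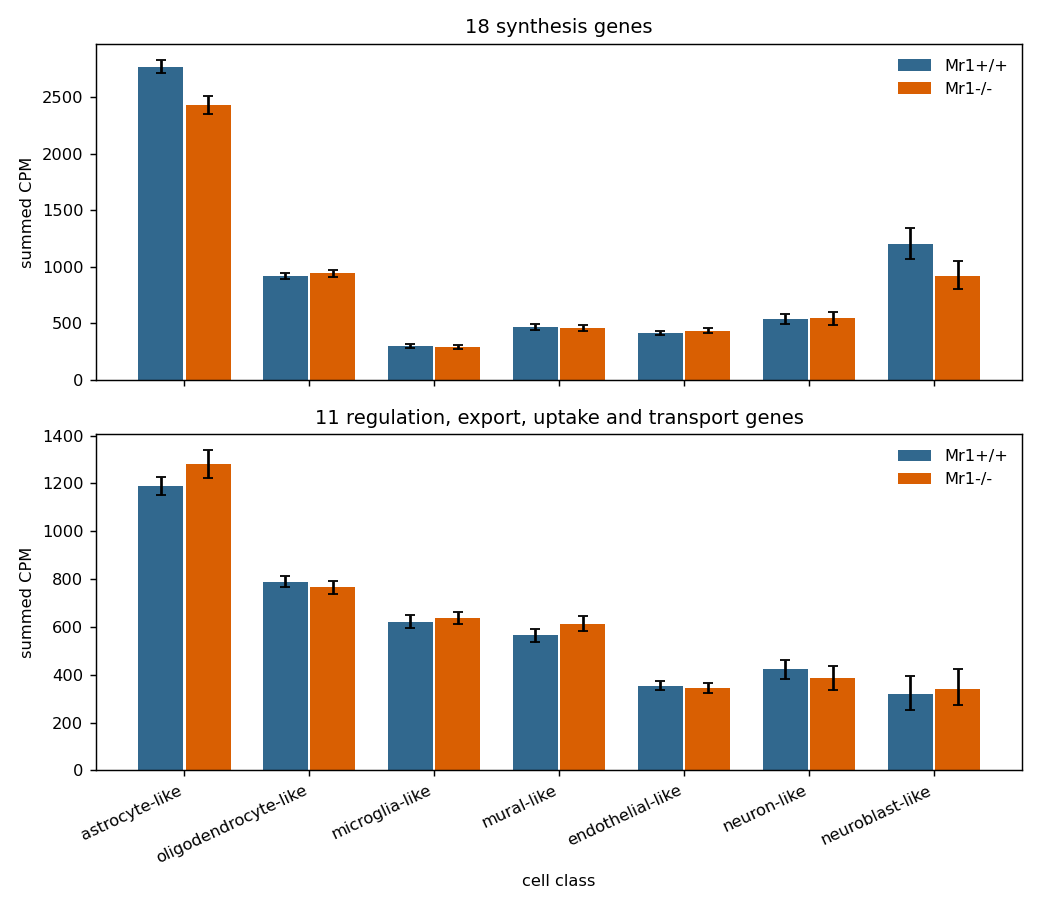
Summed CPM of the 18 synthesis genes (top) and of the 11 other genes (bottom) in the 7 cell classes of 50 or more cells per library, with blue bars for the Mr1+/+ library, orange bars for the Mr1-/- library and exact 95% Poisson intervals as error bars. Of the classes shown, astrocyte-like cells stand highest in both panels, at 2769 and 2430 CPM for synthesis.

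Ranks and folds over the next class are given among the 5 large classes unless another set is named. Among them, 16 of the 18 synthesis genes were highest in astrocyte-like cells in both libraries. Of the early arm, Hmgcs1, which makes HMG-CoA, reached 223 CPM in Mr1+/+ and 199 CPM in Mr1-/- astrocyte-like cells, 1.81 and 1.82 times the next class. Mvd, the decarboxylase that yields isopentenyl diphosphate, reached 81.2 and 84.0 CPM, 8.07 and 7.33 times the next class. Idi1, the isomerase that follows it, reached 140 and 141 CPM, or 2.66 and 2.85 times the next class. These 3 genes thus differed in how far astrocyte-like cells stood above the rest. Fdft1, the squalene synthase that commits the pathway to sterols, reached 371 and 343 CPM, 3.45 and 3.01 times the next class. Its exons overlap those of an antisense neighbour, Ctsb, and no source used here says whether counting used strand. Fdps, the farnesyl diphosphate synthase, was nearly level between astrocyte-like (109 and 117 CPM) and oligodendrocyte-like cells (95.2 and 112 CPM), and its intervals overlapped there.

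Among the synthesis genes, the largest folds over the next class were those of Tm7sf2 and Msmo1, both of the sterol arm. Tm7sf2, a sterol reductase, reached 104 and 95.6 CPM in astrocyte-like cells, 19.1 and 12.1 times the next class. Tm7sf2 shares exon sequence on the same strand with Vps51, which had 168 UMIs in all kept cells. Msmo1, a methylsterol oxidase, reached 844 and 668 CPM, 9.54 and 7.75 times the next class. Sqle, the squalene epoxidase, reached 145 and 129 CPM in astrocyte-like cells, but microglia-like cells held 1 UMI of it in each library (0.263 and 0.253 CPM). Cyp51, the lanosterol demethylase, reached 155 and 115 CPM, 3.20 and 2.22 times the next class. Dhcr7, which catalyses a last step to cholesterol, reached 79.9 and 82.6 CPM, 3.62 and 3.80 times the next class.

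The other 2 synthesis genes departed from this pattern. Ebp, the sterol isomerase, was highest in microglia-like cells, at 110 CPM (99.4 to 121) and 113 CPM (103 to 124), followed by oligodendrocyte-like cells at 81.6 and 83.3 CPM, and stood at 47.7 and 34.1 CPM in astrocyte-like cells. Pmvk, the phosphomevalonate kinase, was spread over classes: it was highest in astrocyte-like cells of the Mr1+/+ library (94.4 CPM) and in mural-like cells of the Mr1-/- library (89.4 CPM), with overlapping intervals between these classes in each library. Acat2, which joins acetyl-CoA units, was highest in neuroblast-like cells among the 7 classes of 50 or more cells per library, at 69.9 and 92.6 CPM, from 18 and 23 UMIs. The smaller oligodendrocyte precursor-like class stood at 72.1 and 68.0 CPM, from 15 and 10 UMIs.

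**Figure D2:**
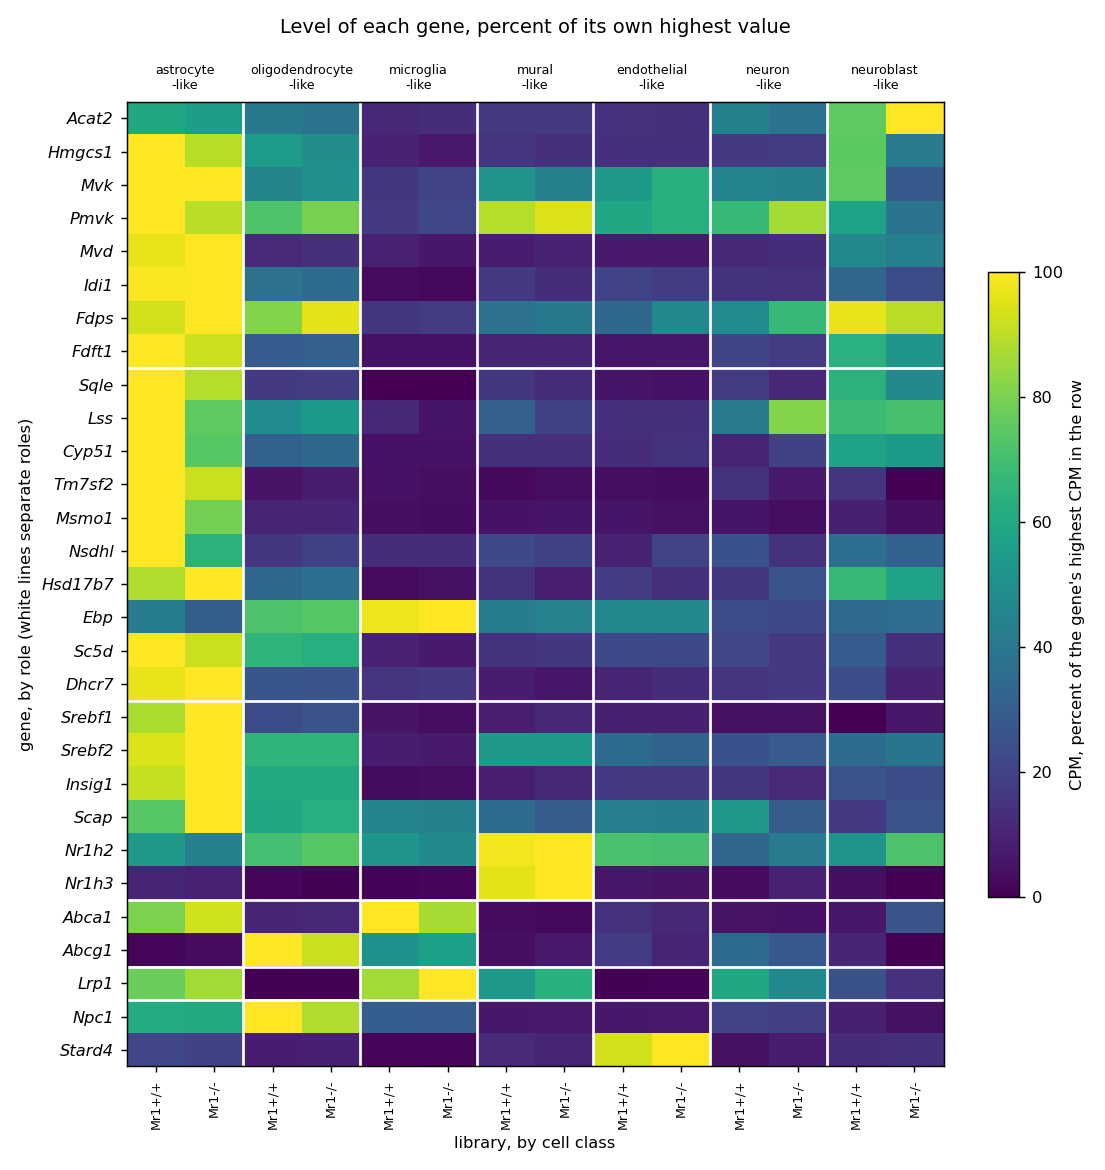
CPM of each of the 29 genes in 7 cell classes and both libraries, as a percent of the gene's own highest CPM in its row, with rows grouped by role. The bright block at the left of the synthesis rows is the astrocyte-like class, and Acat2, Ebp, Nr1h2, Nr1h3, Abca1, Abcg1, Lrp1, Npc1 and Stard4 are brightest in other classes.

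The genes of regulation, export, uptake and transport were divided among classes. Srebf1, which encodes the factor tied most to fatty acid genes, reached 220 and 251 CPM in astrocyte-like cells, 3.77 and 3.91 times the next large class. The small ependymal-like class (45 and 59 cells) stood at 260 and 230 CPM, from 82 and 85 UMIs. Exons of Srebf1 overlap those of an antisense neighbour, Rai1. Srebf2, the factor tied most to cholesterol genes, reached 137 and 145 CPM in astrocyte-like cells, and Insig1 203 and 223 CPM, each less than 2 times the next large class. Scap was more even, at 34.9 and 47.1 CPM in astrocyte-like and 28.0 and 29.6 CPM in oligodendrocyte-like cells. The liver X receptors were both highest in mural-like cells of the 5 large classes. Nr1h3 reached 92.8 CPM (81.7 to 105) and 96.8 CPM (84.8 to 110) there, 9.41 and 10.9 times the next large class, and 1.05 and 1.26 CPM in microglia-like cells from 4 and 5 UMIs. The 29 and 32 fibroblast-like cells stood at 54.2 and 101 CPM, from 6 and 12 UMIs. Within mural-like cells, Nr1h3 stood at 231 and 213 CPM in cluster 4, at 128 and 119 CPM in cluster 11 and at 12.5 and 15.1 CPM in cluster 7, so clusters of 1 class differed more than the libraries did. Nr1h2 reached 154 and 157 CPM in mural-like cells and ranged from 68.3 to 116 CPM in the other large classes.

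The exporters differed in the glia that carried them. Abca1, which loads sterol onto lipid-poor apolipoproteins, stood at 123 and 107 CPM in microglia-like cells and at 98.6 and 114 CPM in astrocyte-like cells, with 13.1 and 14.1 CPM in oligodendrocyte-like cells. Abcg1, which passes sterol to lipoprotein particles, stood at 73.0 and 67.1 CPM in oligodendrocyte-like cells and 37.4 and 41.2 CPM in microglia-like cells, while astrocyte-like cells held 3 UMIs in each library. Microglia-like cells were the 1 large class above 20 CPM for both exporters in both libraries. Lrp1, an endocytic receptor for apolipoprotein E, reached 245 and 284 CPM in microglia-like, 220 and 245 CPM in astrocyte-like and 152 and 180 CPM in mural-like cells. It stood higher in fibroblast-like cells (687 and 617 CPM, 76 and 73 UMIs) and in oligodendrocyte precursor-like cells (443 and 510 CPM, 92 and 75 UMIs), both small classes. Oligodendrocyte-like cells held 7 and 7 UMIs of Lrp1 and endothelial-like cells 5 and 9, or 0.374% (0.122 to 0.871) and 0.606% (0.277 to 1.15) of endothelial-like cells by exact binomial intervals, against 45.2% and 47.6% of astrocyte-like cells, whose median depths were 3120 and 2994 UMIs against 2539 and 2342. Npc1, which moves sterol out of lysosomes, was highest in oligodendrocyte-like cells (268 and 236 CPM), with astrocyte-like cells next among the large classes (165 and 163 CPM) and the small oligodendrocyte precursor-like class at 197 and 177 CPM from 41 and 26 UMIs. Exons of Npc1 overlap those of an antisense neighbour, Rmc1. Stard4, a soluble sterol carrier, was highest in endothelial-like cells, at 56.2 and 60.4 CPM, 4.38 and 5.20 times the next large class.

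Set against each other inside a class, synthesis and the other roles gave class-specific balances. Synthesis genes held 70.0% (69.1 to 70.8) of the UMIs of the 29 genes in Mr1+/+ astrocyte-like cells and 65.5% (64.2 to 66.8) in Mr1-/- ones, a difference of -4.46 points (-5.97 to -2.96). In microglia-like cells the share was 32.8% and 31.6%, in mural-like cells 45.2% and 43.0%, in oligodendrocyte-like cells 53.8% and 55.2%, and in endothelial-like cells 54.0% and 55.9%. Among the 5 large classes, the interval of the difference left out 0 in astrocyte-like cells alone, and the class total drops out of this share. Of the 7 classes of 50 or more cells per library, neuroblast-like cells had the highest share, 79.1% and 72.9%, from 392 and 314 UMIs.

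**Figure D3:**
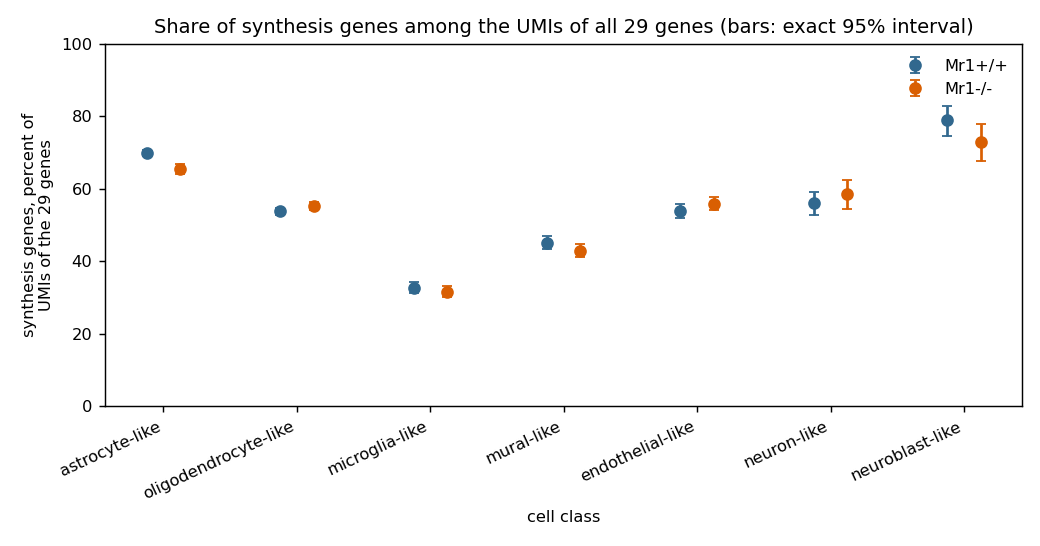
Percent of the UMIs of the 29 genes that belonged to the 18 synthesis genes, by cell class (the same 7) and library, with exact 95% binomial intervals. Microglia-like cells lie lowest, at 32.8% and 31.6%, and astrocyte-like cells at 70.0% (Mr1+/+, blue) and 65.5% (Mr1-/-, orange) do not overlap.

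Between the genotypes, astrocyte-like cells of the Mr1-/- library had lower synthesis levels and slightly higher levels of the other genes. The ratio of the synthesis sums, Mr1-/- over Mr1+/+, was 0.878 (0.844 to 0.913). The sterol arm went from 1639 to 1353 CPM (ratio 0.825, 0.783 to 0.870) and the early arm from 1130 to 1077 CPM (0.954, 0.898 to 1.01), so the interval of the early arm included 1. The sum of the 11 other genes went from 1188 to 1279 CPM (1.08, 1.02 to 1.14). Msmo1 held the most UMIs of the sterol arm, and without it the ratio was 0.915 (0.874 to 0.959) for all synthesis and 0.861 (0.799 to 0.927) for the sterol arm. In cells of at least 1500 UMIs, the median astrocyte-like cell carried 25.7 synthesis UMIs per 10000 where Mr1 was intact and 21.8 in Mr1-/- mice. At a finer clustering, the astrocyte-like cluster led by Slc1a2 and Clu went from 2543 to 2223 CPM (ratio 0.874, 0.825 to 0.926) and the cluster led by Igfbp2 and F3 from 3064 to 2673 CPM (0.872, 0.826 to 0.921). Both clusters thus moved alike, and a shallow cluster of 102 and 20 cells had a ratio of 0.787 (0.557 to 1.09).

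A gene was called where it had at least 50 UMIs over both libraries in the class, its level in the Mr1-/- library was at least 25% higher or at least 20% lower, and the interval of the ratio left out 1. In astrocyte-like cells 27 of the 29 genes had enough UMIs. Of these, 0 were called higher and 4 lower in the Mr1-/- library, all from the sterol arm, while the same rule called 2.46% of 8482 genes higher and 3.42% lower. The median log2 ratio was -0.12 over the 18 synthesis genes and 0.14 over the 9 other measured genes, beside -0.02 over all genes of that class.

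Msmo1, encoded at chr8:64718139-64733792, went from 844 CPM (812 to 877; 2567 UMIs) in the Mr1+/+ library to 668 CPM (627 to 712; 979 UMIs), a ratio of 0.792 (0.735 to 0.853). The intervals did not overlap, and the share of astrocyte-like cells with an Msmo1 UMI, after thinning each cell to 1500 UMIs, was 67.6% and 54.7% (81.2% and 75.3% without thinning). Nsdhl, a dehydrogenase that acts with Msmo1 in removing methyl groups from the sterol ring and lies at chrX:72918557-72958514, went from 63.8 CPM (55.1 to 73.4; 194 UMIs) to 41.0 CPM (31.3 to 52.7; 60 UMIs), a ratio of 0.642 (0.472 to 0.862). Its intervals did not overlap either. Hsd17b7, the reductase of the same demethylation steps, stood at 30.6 and 34.8 CPM (ratio 1.14, 0.793 to 1.62), so not every enzyme of these steps was lower.

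Cyp51, at chr5:4081145-4104746, went from 155 CPM (141 to 169; 470 UMIs) to 115 CPM (98.0 to 133; 168 UMIs), a ratio of 0.742 (0.619 to 0.887), again without overlap. Its exons overlap those of an antisense neighbour, Akap9. Ebp, at chrX:8185329-8193512, went from 47.7 CPM (40.2 to 56.1; 145 UMIs) to 34.1 CPM (25.3 to 45.0; 50 UMIs), a ratio of 0.716 (0.508 to 0.994). Its 2 level intervals overlapped, unlike those of the other 3 genes. With median-of-ratios scaling in place of class totals, 2 genes of the 29 were called lower, Cyp51 and Nsdhl: the log2 ratio of Msmo1 was -0.31, short of the fold of a call, and Ebp was not called either. The Ebp call was also lost after thinning, with doublets kept and with shallow clusters left out, and at a fold of 1.5 only Nsdhl was called. The remaining sterol genes were not called in the main setting. Sqle had a ratio of 0.888 (0.745 to 1.06), Tm7sf2 0.923 (0.751 to 1.13), Sc5d, a sterol desaturase, 0.922 (0.776 to 1.09) and Dhcr7 1.03 (0.824 to 1.29). Lss, the lanosterol synthase, had a ratio of 0.752 (0.456 to 1.20) from 69 and 25 UMIs. This ratio was below that of Msmo1, but its interval included 1.

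**Figure D4:**
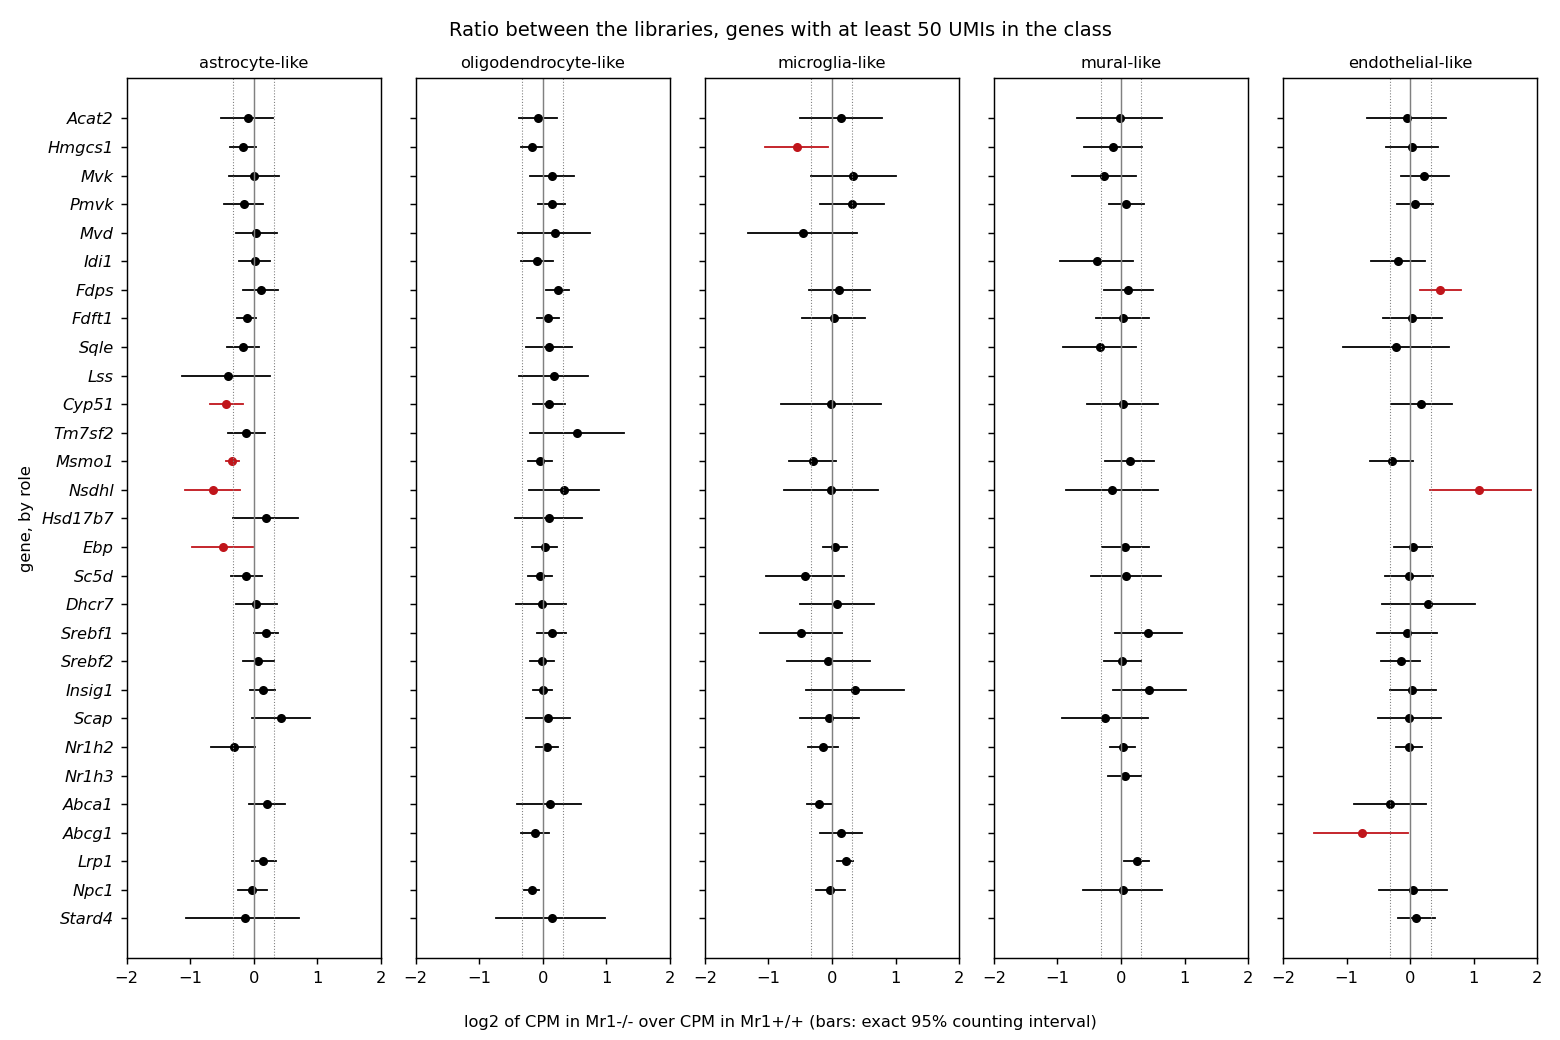
Ratio of CPM between libraries (Mr1-/- over Mr1+/+, log2 axis) for each gene with at least 50 UMIs in the class, with exact 95% counting intervals as bars and dotted lines at the fold of a call (25% higher, 20% lower). Red marks called genes: 4 lower in astrocyte-like cells, 1 lower in microglia-like cells, and 2 higher and 1 lower in endothelial-like cells.

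None of the genes of regulation, export, uptake and transport was called in astrocyte-like cells in the main setting. Among the alternatives, Nr1h2 was called lower after thinning to 1500 UMIs, and Scap was called higher with equal cell weight or the fold alone. Srebf2 had a ratio of 1.05, Srebf1 1.14, Insig1 1.10 (0.958 to 1.26) and Scap 1.35 (0.983 to 1.85), and Nr1h2 was at 0.802 (0.630 to 1.01). Abca1 stood at 1.16 (0.951 to 1.40), Lrp1 at 1.11 (0.977 to 1.27) and Npc1 at 0.982 (0.839 to 1.15). Summed marker levels of the other classes were low in astrocyte-like cells: the 10 microglial markers stood at 0.225% and 0.176% of their level in microglia-like cells, and the 10 oligodendrocyte markers at 0.637% and 0.481% of theirs. The part of such transcripts in the results was not tested.

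Oligodendrocyte-like cells showed no called gene among the 27 with enough UMIs, while the rule called 2.28% of 8999 genes higher and 3.87% lower there. Synthesis had a ratio of 1.03 (0.985 to 1.07) and the other genes 0.970 (0.928 to 1.01). The median log2 ratio over the 18 synthesis genes was 0.10, beside -0.02 over all genes. Fdps went from 95.2 to 112 CPM (1.18, 1.04 to 1.33) and Npc1 from 268 to 236 CPM (0.884, 0.816 to 0.956), both with intervals that left out 1 but changes too small for a call. Hmgcs1 stood at 123 and 109 CPM, a ratio of 0.892. The cluster led by Klk6 was the highest of the 3 oligodendrocyte-like clusters in synthesis, at 1153 CPM (1100 to 1207) and 1063 CPM, against 864 and 918 CPM in cluster 2 and 791 and 887 CPM in cluster 5. Insig1 ran the other way, at 115 and 100 CPM in the Klk6-led cluster, 141 and 147 CPM in cluster 2 and 148 and 146 CPM in cluster 5. At the finer clustering, a Klk6-led cluster of 143 and 104 cells went from 1275 to 1130 CPM in synthesis (ratio 0.886, 0.806 to 0.974). The other oligodendrocyte-like clusters at that resolution had ratios of 1.03 to 1.09, with intervals that included 1.

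**Figure D5:**
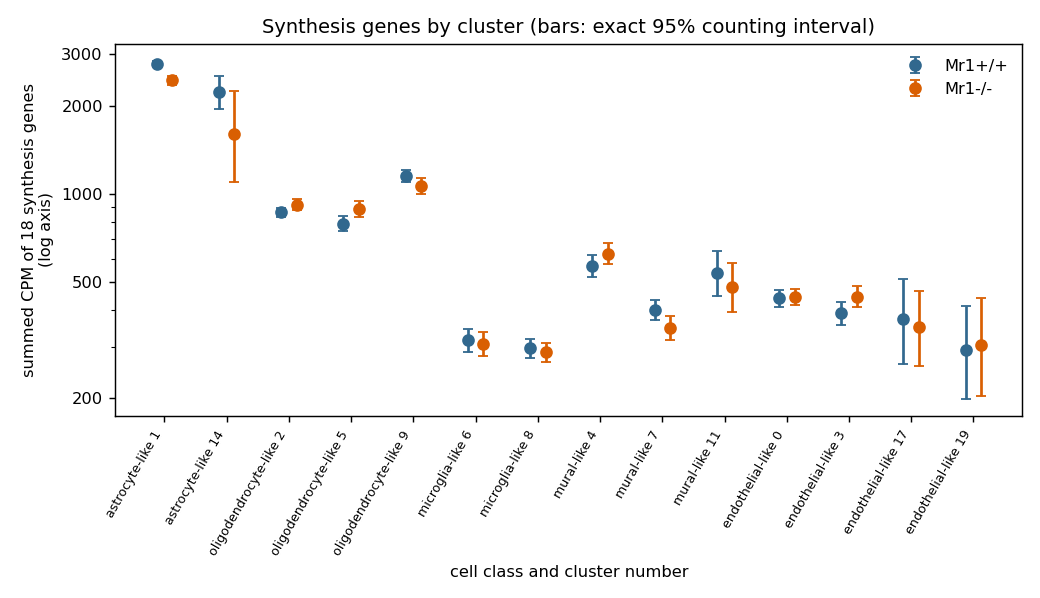
Summed CPM of the 18 synthesis genes (log axis) in each cluster of the 5 large classes, by library, with exact 95% Poisson intervals. Oligodendrocyte-like cluster 9, led by Klk6, lies above clusters 2 and 5 in both libraries, and astrocyte-like cluster 1 lies at 2788 (Mr1+/+, blue) and 2442 CPM (Mr1-/-, orange).

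Endothelial-like cells had 2 genes called higher and 1 lower among 23 with enough UMIs, while the rule called 4.33% of 8984 genes higher and 4.06% lower. Fdps went from 39.2 CPM (32.9 to 46.4; 136 UMIs) to 54.5 CPM (47.1 to 62.7; 196 UMIs), a ratio of 1.39 (1.11 to 1.74), and the intervals did not overlap. Its call was lost at a fold of 1.5. Nsdhl went from 6.05 CPM (3.75 to 9.25; 21 UMIs) to 12.8 CPM (9.37 to 17.1; 46 UMIs), a ratio of 2.11 (1.24 to 3.73), the direction opposite to that in astrocyte-like cells. This call was lost after thinning and at a minimum of 100 UMIs. Abcg1 went from 12.7 CPM (44 UMIs) to 7.51 CPM (27 UMIs), a ratio of 0.592 (0.352 to 0.977), and its call was lost after thinning, at a mitochondrial limit of 5%, with doublets kept and at a minimum of 100 UMIs. Within the class, Abcg1 was mostly in cluster 0 (18.3 and 9.74 CPM), while cluster 3 held 4 and 3 UMIs. Synthesis as a whole stood at a ratio of 1.05 (0.979 to 1.13) and the other genes at 0.971 (0.897 to 1.05).

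Microglia-like cells had 1 of 22 measured genes called, where the rule called 2.22% of 8835 genes higher and 3.76% lower. This was Hmgcs1, which went from 22.6 CPM (18.1 to 27.9; 86 UMIs) to 15.4 CPM (11.8 to 19.8; 61 UMIs), a ratio of 0.681 (0.482 to 0.956), with overlapping levels. Its call was lost after thinning to 1500 UMIs, with equal cell weight and at a fold of 1.5. Lrp1 went from 245 to 284 CPM (1.16, 1.06 to 1.26) and Abca1 from 123 to 107 CPM (0.873, 0.764 to 0.998), both with changes too small for a call. Ebp was even, at a ratio of 1.03 (0.903 to 1.18). Synthesis had a ratio of 0.969 (0.893 to 1.05) and the other genes 1.02 (0.968 to 1.08).

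Mural-like cells had 0 of 21 measured genes called, where the rule called 3.63% of 8626 genes higher and 3.64% lower. Synthesis had a ratio of 0.990 (0.913 to 1.07), while the 11 other genes went from 564 to 612 CPM (1.08, 1.01 to 1.17). Lrp1 moved from 152 to 180 CPM (1.19, 1.03 to 1.36), below the fold of a call. Across the 3 large classes in which Lrp1 could be measured, its ratio lay above 1 each time. Fdps was above 1 in all 5 large classes and was called in 1 of them. Its ratio was 1.08 in astrocyte-like, microglia-like and mural-like cells, with intervals that included 1. How often other genes keep 1 direction over these classes was not tested.

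The small classes carried few UMIs. In neuroblast-like cells, synthesis went from 1203 CPM (310 UMIs) to 922 CPM (229 UMIs), a ratio of 0.767 (0.643 to 0.912), led by Hmgcs1 at 167 and 92.6 CPM (0.555, 0.319 to 0.942). Oligodendrocyte markers differed alongside in this class, at 3.63% and 0.173% of their level in oligodendrocyte-like cells, and their part in the result was not tested. Neuron-like cells had a synthesis ratio of 1.01 (0.886 to 1.16).

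Over all kept cells together, synthesis went from 905 to 715 CPM, a ratio of 0.789 (0.772 to 0.807). When the class levels of the Mr1-/- library were weighted by the class totals of the Mr1+/+ library, an alternative added after the data were seen, its synthesis level was 861 CPM and the ratio 0.951. Astrocyte-like cells held 8.45% of Mr1-/- UMIs against 14.2% of Mr1+/+ UMIs, and the pooled value moves with this share.

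A further 46 genes of the pathway were read for context by the same rule. In astrocyte-like cells this rule called 2.46% of all measured genes higher and 3.42% lower. Astrocyte-like cells had 34 with enough UMIs, 2 called higher and 0 lower: Gramd1b, a sterol carrier between membranes, went from 55.9 to 72.4 CPM (1.29, 1.01 to 1.66) and Fdx1, an electron donor of mitochondrial enzymes, from 93.4 to 118 CPM (1.26, 1.04 to 1.53). Apoe, the main apolipoprotein of brain lipoproteins, stood at 19830 and 18476 CPM in astrocyte-like cells (0.932, 0.918 to 0.945). Clu, another apolipoprotein, stood at 9540 and 8973 CPM there (0.941, 0.921 to 0.960). In oligodendrocyte-like cells 34 of the 46 had enough UMIs, and the rule called 2.28% of all measured genes higher and 3.87% lower. Gramd1b was called higher there, from 16.9 to 24.4 CPM (1.44, 1.09 to 1.91). Pltp, a phospholipid transfer protein, was also called higher there, from 23 and 40 UMIs, and Clu was called lower, from 234 and 109 UMIs. Astrocyte markers in this class stood at 0.637% and 0.54% of their level in astrocyte-like cells. Their part in the values of Clu was not tested. Pltp is also an endothelial marker of the class lists, at 5076 and 5333 CPM in endothelial-like cells.

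Tmem97, a sterol-responsive membrane protein that binds Npc1, was called higher in endothelial-like cells (12.1 and 18.9 CPM, 1.56, 1.05 to 2.35). It was the 1 call of 32 there, where the rule called 4.33% of all measured genes higher and 4.06% lower. Tmem97 was also called higher in mural-like cells (66.3 and 85.3 CPM, 1.29, 1.05 to 1.58). Mural-like cells had 3 called higher and 3 lower of 32, beside 3.63% and 3.64% of all measured genes. Scarb1, a lipoprotein receptor, went from 49.4 to 64.4 CPM and Lipa, the lysosomal lipase, from 19.5 to 31.2 CPM. Gramd1a, a relative of Gramd1b, went from 34.3 to 23.4 CPM, Apoe from 191 to 150 CPM and Clu from 28.4 to 8.61 CPM. The astrocyte markers summed to 1203 and 1313 CPM in mural-like cells, 4.86% and 5.38% of their level in astrocyte-like cells. Apoe and Clu stood at smaller parts of their astrocyte-like levels given above. Which of the markers mural-like cells carry themselves, and the part of astrocyte transcripts in the values of Apoe and Clu, was not tested. Microglia-like cells had 1 higher and 1 lower of 31, beside 2.22% and 3.76% of all measured genes. Lpl, lipoprotein lipase, went from 10.8 to 16.7 CPM (1.55, 1.03 to 2.34) and Cyp27a1, a sterol hydroxylase, from 21.6 to 14.6 CPM (0.679, 0.477 to 0.962).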

How the data were processed

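The authors deposited raw UMI counts per gene and barcode, with no normalization. Cell Ranger 3.1.0 is named per the file headers, and Cell Ranger 5.1.0, STAR and mm10 per the submitters' processing notes. The annotation and strand setting of the counting are not given in the sources used here. From these counts, cells with at least 300 genes and at most 10% mitochondrial UMIs were kept and doublets removed per library with Scrublet in scanpy 1.11.5 (335 and 171 cells). The 2000 most variable genes, 30 principal components, 15 neighbours and Leiden clustering at resolution 1.0 (seed 7) gave clusters without integration of the libraries. Each was named from lists of up to 10 markers per class. A cluster stayed unnamed with fewer than 3 detected markers, or with a shallow median depth and no own marker among its top 10 genes. It also stayed unnamed where another class had more markers than its own among those top 10 genes. The median depth was 3160 and 2935 UMIs per barcode. UMIs were summed per class and library and given as CPM with exact Poisson intervals (95%), ratios with exact conditional binomial intervals, shares with Clopper-Pearson intervals and their differences with Newcombe intervals (scipy 1.17.1). They cover counting error only. Calls were made in classes of at least 200 cells per library, over all genes. All 29 genes and those of the wider pathway list that were called in a class or held the most UMIs could be named. A result from that list is not reported here. The genes and lists were chosen with earlier results of these data known. Gene positions come from GENCODE M21 (GRCm38). Interval coverage was checked on simulated independent Poisson counts, which is the model the intervals assume. The check therefore says nothing of variation between cells or mice. Alternatives in scaling, cell weight, depth, filters, clustering and call rule were tried.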

Additional observations from a re-analysis of the deposited data

Results flagged for a closer look

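Nsdhl moved in opposite directions in a pair of classes. Its ratio, Mr1-/- over Mr1+/+, was 2.11 in endothelial-like cells (21 and 46 UMIs) and 0.642 in astrocyte-like cells (194 and 60 UMIs), and in each class the counting interval left out 1. The difference between the classes was not tested, since each genotype had 1 library. The endothelial-like call was lost after thinning and at a minimum of 100 UMIs.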

How the results depend on the processing

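No paired analysis was possible because each genotype had 1 library. All 72 alternative values of the 8 called log2 ratios kept their direction and stayed within their counting intervals. For the class sums and the shares, 87 of 90 values each stayed within the intervals. The exceptions were a mural-like synthesis log2 ratio of 0.13 at a mitochondrial limit of 5%, log2 ratios of the other genes after thinning of 0.01 (mural-like) and -0.12 (oligodendrocyte-like), and Mr1+/+ synthesis shares with equal cell weight of 42.8% (mural-like) and 52.0% (oligodendrocyte-like), or 42.7% after thinning (mural-like). Among alternatives added after the data were seen, the astrocyte-like synthesis log2 ratio was -0.13 without Msmo1, and the ratio over all kept cells -0.07 at the Mr1+/+ class mix. Called counts moved in 20 of 130 values. In astrocyte-like cells, lower calls were 2 with median-of-ratios scaling and 1 at a fold of 1.5, and higher calls 1 with equal cell weight or the fold alone. In endothelial-like cells, higher calls were 1 after thinning, at a minimum of 100 UMIs or at a fold of 1.5, and lower calls were 2 with equal cell weight and 0 after thinning, at the 5% limit or at 100 UMIs. In microglia-like cells, lower calls were 0 after thinning or at a fold of 1.5, and the fold alone gave 2 higher and 4 lower. In mural-like cells, higher calls were 1 with equal cell weight or at the 5% limit, and the fold alone gave 2 higher and 2 lower. In oligodendrocyte-like cells, the fold alone gave 2 higher. Other changes were not counted as moves. In astrocyte-like cells the Ebp call was lost with doublets kept and with shallow clusters left out, and the fold alone added Lss as lower. After thinning, Nr1h2 replaced Ebp among the lower calls there. Msmo1 replaced Abcg1 among endothelial-like lower calls with doublets kept, and Sc5d replaced Hmgcs1 in microglia-like cells with equal cell weight. For the moves in counts other than those from a stricter minimum or fold, the cause was not tested. Genes with few UMIs, such as Nsdhl in endothelial-like cells, have wide intervals.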
